A study of Mus musculus with 6 samples.

Results

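The DUSP and Sprouty genes described here encode brakes on MAP kinase signalling, and 10 of them were read from a table of 38216 gene symbols: Dusp1, Dusp2, Dusp4, Dusp5, Dusp6, Dusp10, Spry1, Spry2, Spred1 and Spred2. They were chosen by name, and each symbol had 1 row. The RNA came from splenic CD4+ T cells of C57BL/6 mice taken at postnatal day 28. All of them carried the IL21-VFP reporter, in which transcription of the cytokine gene Il21 makes a cell fluoresce. How the reporter allele was built is not given in the sources used here. Cells were sorted by flow cytometry on the reporter and on ICOS, a costimulatory receptor of activated T cells. The N pool was VFP-ICOS-, the ACT pool VFP-ICOS+ and the ACT IL21 pool VFP+ICOS+. Each pool was sequenced as 2 libraries, and nothing in the labels says that these came from separate animals, so the p-values measure the spread between libraries, which may be technical.

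MAP kinases carry signals from the T cell receptor, cytokine receptors and stress to the nucleus along the ERK, p38 and JNK cascades. Dual-specificity phosphatases, encoded by Dusp genes, switch these kinases off by removing phosphate from the threonine and the tyrosine of the activation loop. Sprouty and Spred proteins act further upstream, where they restrain Ras and Raf. Many of these genes are themselves switched on by MAP kinase signalling, which makes them negative feedback genes and a common readout of pathway activity in T cells.

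The values are TPM as deposited by the authors, a share of all transcripts that is scaled for their length and keeps no record of sequencing depth. Between 12095 and 12396 genes per library reached 1 TPM. Spearman correlations across genes were 0.941 to 0.971 within pools and 0.904 to 0.931 between pools, and genes are not independent replicates. The 7 defining CD4 T cell markers summed to between 7514 and 11194 TPM in each library. Cd4 itself differed between pools, at 357.93 and 315.56 TPM in N, 267.60 and 236.07 in ACT, and 533.54 and 566.54 in ACT IL21. Cd8a of cytotoxic T cells and the B cell genes Cd79a, Ms4a1, Pax5, Blk and Fcer2a were under 1 TPM in every library. Cd8b1, the partner chain of Cd8a, was at 26.68 and 18.73 TPM in N and at 3.41 to 9.80 TPM in the ICOS+ pools. The 6 matched erythroid genes summed to 87.48 and 28.36 TPM in N, 55.43 and 35.16 in ACT, and 155.76 and 48.07 in ACT IL21. Of the myeloid list, Cst3 was at 31.62 and 26.51 TPM in N, 68.30 and 51.83 in ACT, and 48.20 and 50.97 in ACT IL21.

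The regulatory sequence in front of 5 of the genes is shown before their levels. Spry2, Dusp1 and Dusp10 are the genes that passed a test between pools, Spry1 is the gene whose pattern contrasts with that of Spry2, and Dusp5 holds a pair of serum response motifs. Each sequence runs from 250 to 51 bases before the RefSeq start site (GRCm38.p6, RefSeq), 5′ to 3′ on the strand of the gene. The RefSeq starts of Dusp1 and Dusp10 lie inside the longer GENCODE spans given further on. Capitals mark matches to the motifs that were searched on both strands.
Spry1, chr3:37639697-37639896, plus strand: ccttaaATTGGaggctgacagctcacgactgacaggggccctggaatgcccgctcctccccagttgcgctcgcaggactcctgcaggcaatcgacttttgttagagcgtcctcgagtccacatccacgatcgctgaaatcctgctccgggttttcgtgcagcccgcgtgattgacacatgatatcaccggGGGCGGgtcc
Spry2, chr14:105896870-105897069, minus strand: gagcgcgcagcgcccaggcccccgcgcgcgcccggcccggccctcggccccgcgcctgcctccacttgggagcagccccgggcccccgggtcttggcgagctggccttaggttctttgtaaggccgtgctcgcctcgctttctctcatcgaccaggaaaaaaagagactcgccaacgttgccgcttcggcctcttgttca
Dusp1, chr17:26508523-26508722, minus strand: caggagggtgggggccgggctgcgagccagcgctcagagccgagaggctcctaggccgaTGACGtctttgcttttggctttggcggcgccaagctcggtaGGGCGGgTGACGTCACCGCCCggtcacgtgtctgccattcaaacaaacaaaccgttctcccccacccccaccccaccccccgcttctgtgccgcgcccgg
Dusp10, chr1:184034131-184034330, plus strand: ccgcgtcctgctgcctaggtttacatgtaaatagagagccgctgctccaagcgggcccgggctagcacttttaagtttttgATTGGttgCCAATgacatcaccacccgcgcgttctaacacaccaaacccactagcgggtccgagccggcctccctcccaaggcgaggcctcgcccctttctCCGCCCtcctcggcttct
Dusp5, chr19:53528895-53529094, plus strand: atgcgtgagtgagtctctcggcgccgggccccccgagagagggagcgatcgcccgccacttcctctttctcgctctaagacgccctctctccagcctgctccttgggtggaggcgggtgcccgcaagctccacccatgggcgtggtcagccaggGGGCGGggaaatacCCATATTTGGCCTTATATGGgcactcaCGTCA

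The motifs were the cyclic AMP response element TGACGTCA and its core TGACG, the AP-1 site TGANTCA, the ETS site CCGGAAGT, the NFAT core TGGAAA, the CArG box of serum response factor, the GC box GGGCGG and the CCAAT box. Of the 10 genes, 9 had an entry in the promoter table, and Dusp4 had none. Dusp1 held 1 complete cyclic AMP response element, 143 bases before its start, which itself holds the core on both strands, and a further core at 191 bases. Of 32817 annotated windows of the same length, 0.8% held the complete element and 12.7% a core. Dusp5 held 2 adjacent CArG boxes, CCATATTTGG and CCTTATATGG, at 82 and 72 bases before its start, and a core at 55 bases. Of all windows 1.2% held a CArG box. GC boxes were found in 6 of the 9 genes and in 24.6% of windows. The windows of the 9 genes were 54.5% to 71.0% G or C, and the background was not matched for base content. CCAAT boxes were found in Dusp10 and Spry1 and in 28.4% of windows. None of the 9 held the AP-1, ETS or NFAT letters, which 5.6%, 1.4% and 15.8% of windows did. The windows of Spry2, Dusp6 and Spred2 held no match to any of these motifs. A match is only a run of letters, and nothing about binding was measured here.

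The Sprouty genes gave the widest differences between pools, and their patterns differed, but of the pair only Spry2 passed a test. Spry2, on chromosome 14 (105891947 to 105896819, GRCm38, minus strand, protein-coding), encodes an inhibitor of receptor-driven Ras to ERK signalling. Its RNA was at 0.87 and 0.45 TPM in the N libraries, 17.47 and 16.27 TPM in ACT, and 1.30 and 0.12 TPM in ACT IL21. Both ACT libraries stood above all 4 others, and the N and ACT IL21 ranges overlapped. The filter for testing, 1 TPM in 2 libraries, was met through the ACT libraries, where Spry2 is high, and 1 ACT IL21 library. By limma on log2(TPM + 1), with adjustment over the 13311 genes tested, Spry2 rose in ACT against N (log2 fold change 3.44 ± 0.49 SE, adjusted p = 0.00647). It was lower in ACT IL21 than in ACT (-3.48 ± 0.49, adjusted p = 0.0149). Its value in ACT IL21 against N was -0.04 ± 0.49 (adjusted p = 0.981). The constant of 1 TPM shrinks folds of genes this low: with a pseudocount of 0.1 the ACT against N value was 4.54, and with 5 it was 1.95. The call of ACT against N ended without N replicate 2 (adjusted p = 0.0681). The call of ACT IL21 against ACT ended without ACT replicate 1 (0.0561), without ACT IL21 replicate 2 (0.101), with a pseudocount of 0.1 (0.0715) and without a filter on low values (0.0615).

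Spry1 encodes a second Sprouty inhibitor of Ras to ERK signalling and lies on chromosome 3 (37639947 to 37644598, plus strand, protein-coding). Its RNA was at 2.01 and 1.14 TPM in N, 6.80 and 0.86 TPM in ACT, and 15.27 and 14.30 TPM in ACT IL21. Both ACT IL21 libraries stood above all 4 others, while the ACT libraries differed 7.91-fold from each other and overlapped N. Spry1 did not pass in any comparison as reported: the value was 2.64 ± 0.66 in ACT IL21 against N (adjusted p = 0.0669), 2.05 ± 0.66 in ACT IL21 against ACT (adjusted p = 0.196) and 0.59 ± 0.66 in ACT against N (adjusted p = 0.714). The ACT libraries add their spread to the shared estimate. Whether Spry1 passed in ACT IL21 against N depended on them, on the pseudocount and on the replicate block. It passed without ACT replicate 1 (adjusted p = 0.0097), without ACT replicate 2 (0.00794), with the N and ACT IL21 libraries alone (0.00893), with a pseudocount of 5 (0.0358) and with the replicate block (0.0362). Against ACT it passed only without ACT replicate 1 (3.08, adjusted p = 0.043). Reads from Spry1 cannot be told apart from those of Gm42922, a gene on the opposite strand whose exon overlaps it, since the strand setting is not known.

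Markers of other T cell types also differed between the pools, and only in part along with the Sprouty genes. In ACT against N, 8 of 8 regulatory T cell markers rose, and their summed level was 226 to 241 TPM in N, 882 to 970 in ACT and 523 to 526 in ACT IL21. Foxp3, the lineage factor gene of regulatory T cells, was at 65.43 and 51.87 TPM in ACT but 1.57 and 2.69 TPM in ACT IL21. Of the 8 markers, 3 fell in ACT IL21 against ACT, among them Foxp3, and 5 did not pass. Ctla4, which did not pass there, was at 190.38 and 312.15 TPM in ACT and 249.71 and 256.52 in ACT IL21. In ACT IL21 against N 4 rose, among them Ctla4, and 2 fell, among them Foxp3. Of 8 tested natural killer and NKT cell markers, 3 rose in ACT against N and 4 fell in ACT IL21 against ACT. The sum over the 10 listed was 45.2 to 54.4 TPM in N, 372 to 383 in ACT and 53.3 to 56.7 in ACT IL21. The similar sums of N and ACT IL21 hide opposite changes, as 1 marker rose, 1 fell and 6 did not pass. Klrb1c rose, from 2.56 and 2.38 TPM in N to 25.49 and 25.70 in ACT IL21. Klrd1 fell, from 33.29 and 38.02 TPM in N to 6.42 and 13.87 in ACT IL21. The summed follicular helper markers, which include the sorted gene Il21, were at 136 to 154 TPM in N, 395 to 493 in ACT and 654 to 756 in ACT IL21. Of these 10 markers, 7 rose in ACT against N and 9 in ACT IL21 against N. Between the ICOS+ pools 5 were higher in ACT IL21 and 1, Il4, was lower. No gene of these 3 lists was at 0 in every library. Of the B cell list, Cd74, which encodes a chaperone of MHC class II, was also highest in ACT, at 17.75 and 14.56 TPM, against 3.09 and 2.13 in N and 6.80 and 6.13 in ACT IL21. Cd74 rose in ACT against N (log2 fold change 2.26 ± 0.37, adjusted p = 0.0119), and Cd79b, at 0.54 to 2.47 TPM, did not pass. The part of these cell types in the Sprouty values was not tested, and in sorted bulk samples fewer cells of a type and less RNA per cell cannot be told apart.

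**Figure D1:**
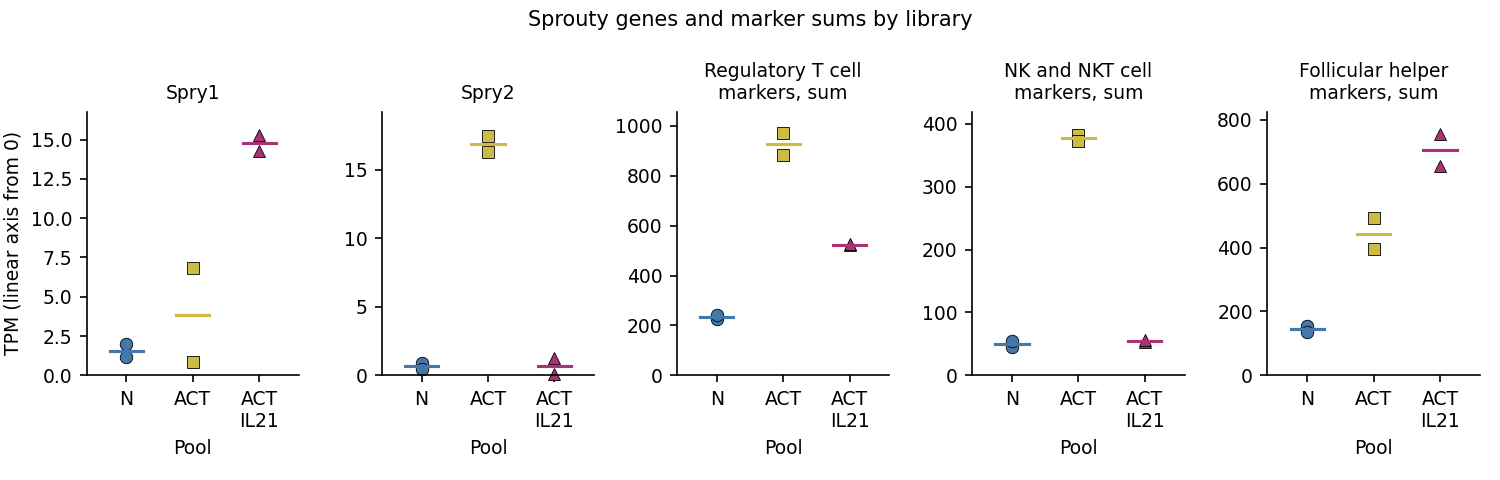
Levels of Spry1, Spry2 and 3 summed marker lists in each library, in TPM on linear axes from 0, by pool; points are libraries and bars are means of 2. Spry2 is at 16.27 and 17.47 TPM in ACT and at 1.30 TPM or less elsewhere, the regulatory T cell and natural killer sums are also highest in ACT, and Spry1 is highest in ACT IL21, at 14.30 and 15.27 TPM.

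The Spred genes, whose proteins bring the Ras inhibitor neurofibromin to the membrane, showed small differences that did not pass. Spred1 (chromosome 2, 117121374 to 117182279, plus strand) was at 5.48 and 5.49 TPM in N, 5.56 and 6.74 in ACT, and 6.73 and 11.00 in ACT IL21. Both ICOS+ pools lay above N without overlap and overlapped each other, by a small margin, and the value of ACT IL21 against N was 0.57 ± 0.38 (adjusted p = 0.497). Spred2 (chromosome 11, 19924375 to 20024026, plus strand) was at 21.77 and 20.25 TPM in N, 29.57 and 21.00 in ACT, and 19.78 and 14.28 in ACT IL21. The ACT IL21 libraries were the lowest of the 6, with -0.54 ± 0.28 against ACT (adjusted p = 0.425) and -0.30 ± 0.28 against N (adjusted p = 0.643).

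Among the phosphatases, Dusp1 and Dusp10 were the most abundant members in each pool and moved in opposite directions in ACT. Dusp1 (chromosome 17, 26505590 to 26562128, minus strand, protein-coding) is an immediate early gene for a nuclear phosphatase of p38, JNK and ERK. Its RNA was at 193.91 and 138.86 TPM in N, 460.72 and 320.26 in ACT, and 246.62 and 352.65 in ACT IL21. Every ICOS+ library stood above both N libraries, and the ACT and ACT IL21 ranges overlapped. Dusp1 rose in ACT against N (1.22 ± 0.25, adjusted p = 0.0332). The values of ACT IL21 against N, 0.84 ± 0.25 (adjusted p = 0.12), and against ACT, -0.38 ± 0.25 (adjusted p = 0.543), did not pass. The call ended without N replicate 1 (adjusted p = 0.0593), without N replicate 2 (0.205), without ACT replicate 1 (0.11), with quantile normalization (0.0582), without a filter on low values (0.10) and without the intensity trend (0.127), at values of 0.96 to 1.46. An exon of Ergic1, at 8.28 to 22.86 TPM, overlaps Dusp1 on the opposite strand. Dusp1 is also known as a gene of the tissue dissociation response. The 17 other genes of that kind summed to 3191 to 3229 TPM in N, 3154 to 3236 in ACT and 3470 to 3581 in ACT IL21. That sum is mostly the abundant Hspa8, at 1630.59 to 1757.05 TPM, so the list is also given by gene. Of the 16 tested, Nfkbia rose and Fos and Jun fell in ACT against N, with a median of -0.04 and 5 at an unadjusted p under 0.05. In ACT IL21 against N Fosb rose, with a median of 0.43 and 7 at an unadjusted p under 0.05. Fos was higher in ACT IL21 than in ACT, with a median of 0.47 and 8 at an unadjusted p under 0.05. The part of a dissociation response in the Dusp1 values was not tested.

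Dusp10 (chromosome 1, 184013302 to 184075636, plus strand, protein-coding) encodes a phosphatase that prefers p38 and JNK to ERK. It was the member that fell in ACT. Its RNA was at 147.86 and 110.01 TPM in N, 50.56 and 62.72 in ACT, and 68.43 and 90.84 in ACT IL21. The 3 pools did not overlap, with N highest and ACT lowest. Dusp10 fell in ACT against N (-1.17 ± 0.22, adjusted p = 0.0235). The value of ACT IL21 against N was -0.69 ± 0.22 (adjusted p = 0.145) and that against ACT 0.48 ± 0.22 (adjusted p = 0.376). The call ended without N replicate 1 (adjusted p = 0.184), without N replicate 2 (0.0574), without ACT replicate 1 (0.0798), without a filter on low values (0.0659) and without the intensity trend (0.0957), at values of -1.38 to -0.95.

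Dusp4, Dusp5 and Dusp6 encode phosphatases that act on ERK, the first and second in the nucleus and Dusp6 in the cytoplasm. Dusp6 (chromosome 10, 99263231 to 99267489, plus strand) was at 11.72 and 16.71 TPM in N, 34.41 and 26.67 in ACT, and 28.64 and 28.37 in ACT IL21. Every ICOS+ library stood above both N libraries. The values were 1.06 ± 0.27 in ACT against N (adjusted p = 0.0645) and 0.98 ± 0.27 in ACT IL21 against N (adjusted p = 0.0913). Dusp4 (chromosome 8, 34807297 to 34819894, plus strand) was at 2.36 and 1.81 TPM in N, 8.09 and 7.65 in ACT, and 4.62 and 7.88 in ACT IL21. It too was higher in each ICOS+ library than in N, at 1.53 ± 0.41 in ACT (adjusted p = 0.0804) and 1.20 ± 0.41 in ACT IL21 (adjusted p = 0.166). Neither gene passed under any of the 16 alternatives in either comparison with N.

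Dusp5 (chromosome 19, 53529109 to 53542431, plus strand) followed another order. It was at 7.07 and 8.43 TPM in N, 14.61 and 17.01 in ACT, and 10.78 and 4.09 in ACT IL21. Both ACT libraries were above the 4 others, and the ACT IL21 libraries spanned N. The values were 0.94 ± 0.44 in ACT against N (adjusted p = 0.312) and -1.11 ± 0.44 in ACT IL21 against ACT (adjusted p = 0.294). The antisense gene AC137853.2 overlaps an exon of Dusp5, so its reads cannot be told apart from those of Dusp5 without strand.

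Dusp2 (chromosome 2, 127336159 to 127338376, plus strand) encodes a nuclear phosphatase of lymphoid cells. It was at 44.18 and 35.61 TPM in N, 46.22 and 41.10 in ACT, and 34.66 and 59.43 in ACT IL21. The 3 pools overlapped, and the ACT IL21 libraries held both the lowest and the highest value. The values were 0.13 ± 0.28 in ACT against N (adjusted p = 0.862), 0.19 ± 0.28 in ACT IL21 against N (adjusted p = 0.782) and 0.06 ± 0.28 in ACT IL21 against ACT (adjusted p = 0.95).

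**Figure D2:**
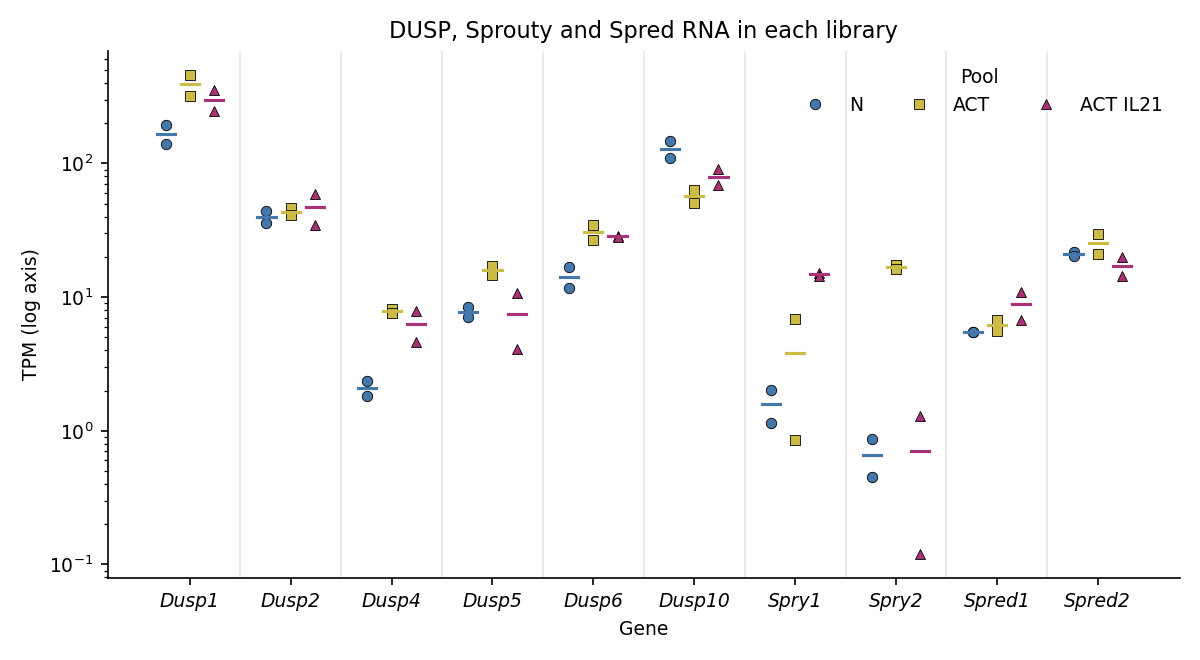
TPM of the 10 genes in each library on a log axis, with pools by colour and shape and bars at the mean of 2 libraries. Dusp1, at 138.86 to 460.72 TPM, is the most abundant, Spry2 is above 1.30 TPM only in ACT, and the ACT libraries of Spry1 lie at 6.80 and 0.86 TPM.

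Since TPM is scaled for length, levels can be ordered across genes. In N the order of mean TPM was Dusp1, Dusp10, Dusp2, Spred2, Dusp6, Dusp5, Spred1, Dusp4, Spry1 and Spry2. The library ranges of Dusp1 and Dusp10 overlapped there, as did those of Dusp4 and Spry1, while the other neighbours in the order were apart in both libraries. In ACT Spry2 moved from the last place to the place above Dusp5, with overlapping ranges, and Spry1 was last. In ACT IL21 Spry1 stood between Spred2, with which it overlapped, and Spred1, and Spry2 was last again.

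Across the 10 genes, 2 rose in ACT against N and 1 fell. Of all genes tested 4.15% rose and 1.43% fell, or 5.58% in either direction. The median of the 10 was 0.76 against 0.02 for all genes. In ACT IL21 against N 0 rose and 0 fell by limma, where 3.82% of all genes rose and 1.26% fell, or 5.09% in either direction. An unadjusted p under 0.05 was found there for 5 of the 10 and for 18.7% of all genes. Their median was 0.38 and that of all genes 0.10. Between the ICOS+ pools 1 gene, Spry2, was lower in ACT IL21 and 0 were higher, where 1.15% and 0.796% of all genes were, or 1.95% in either direction. An unadjusted p under 0.05 was found there for 3 of the 10 and for 14.9% of all genes, and the medians were -0.21 and 0.08. The comparisons with N use the same N libraries.

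Library ranges separate easily with 2 against 2, so the counts of genes without overlap are given beside their background. In ACT against N, 6 of the 10 were higher without overlap and 1 was lower, where 25.2% and 21.9% of all genes were, or 47.0% in either direction. The counts in ACT IL21 against N were 5 higher and 2 lower, with backgrounds of 31.5% and 19.9%, or 51.4% in either direction. Relative to ACT, 2 genes were higher in ACT IL21, Dusp10 and Spry1, and 3 were lower, Dusp5, Spry2 and Spred2, with backgrounds of 24.5% and 17.3%, or 41.8% in either direction.

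**Figure D3:**
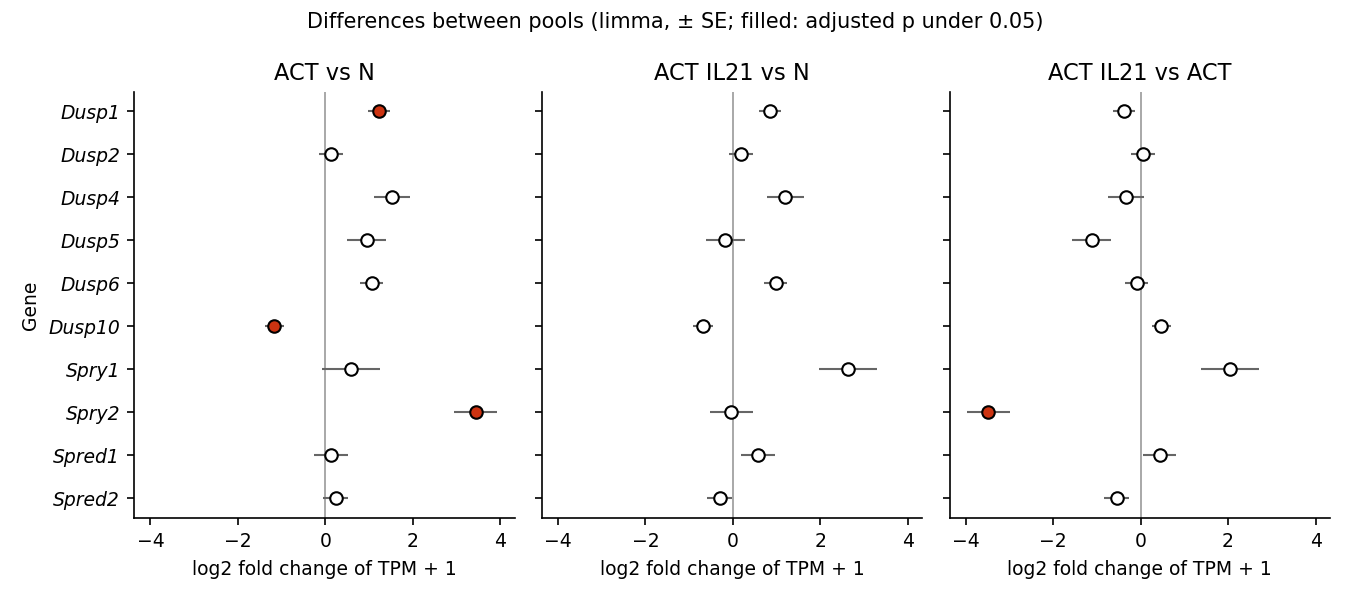
Log2 fold change of TPM + 1 of the 10 genes in the 3 comparisons, with the SE from limma; filled points have an adjusted p under 0.05. Spry2 (3.44), Dusp1 (1.22) and Dusp10 (-1.17) are filled in ACT against N, no gene is in ACT IL21 against N, and Spry2 (-3.48) is in ACT IL21 against ACT.

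The genes whose profile over the 6 libraries was closest to each member past the threshold were found by the root mean square difference of centred log2(TPM + 1). For Spry2 they were Atp6v0d2, a proton pump subunit gene (0.273), Qpct, the glutaminyl cyclase gene (0.332), and Slc27a6, a fatty acid transporter gene (0.372). Atp6v0d2 was at 17.67 and 16.68 TPM in ACT and at 1.44 TPM or less in the other libraries. For Dusp1 the closest were Vapb (0.106), Iffo2 (0.119) and Nfkb2, which encodes an NF-kappaB subunit (0.123). Nfkb2 was at 5.92 and 4.15 TPM in N, 19.45 and 11.54 in ACT, and 9.77 and 11.99 in ACT IL21. For Dusp10 they were Acadm, an acyl-CoA dehydrogenase gene (0.0982), Mtmr10 (0.135) and Zfp1 (0.16).

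Related pathway genes are given by list, to be read against the 5.58%, 5.09% and 1.95% of all genes that passed in ACT against N, ACT IL21 against N and ACT IL21 against ACT. Of the other classical MAP kinase phosphatase genes, Dusp7 and Dusp16 were measured and neither passed in any comparison, with 0 at an unadjusted p under 0.05, and Dusp8 and Dusp9 were below the filter. Of the 7 measured atypical dual-specificity phosphatase genes, 0 passed by limma, and 1 had an unadjusted p under 0.05, in ACT IL21 against N. Spry4 and Spred3 were below the filter.

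In the list from Ras to ERK, 1 of 20 genes, Rasgrp2, fell in ACT against N and was higher in ACT IL21 than in ACT. The median of the list was -0.03 in ACT against N and 0.27 in ACT IL21 against ACT, where that of all genes was 0.02 and 0.08. Rasgrp2, an exchange factor gene that acts mainly on Rap, was at 143.39 and 117.96 TPM in N, 59.66 and 45.25 in ACT, and 120.21 and 114.80 in ACT IL21. Rasgrp2 fell in ACT against N (-1.31 ± 0.19, adjusted p = 0.00706) and was higher in ACT IL21 than in ACT (1.16 ± 0.19, adjusted p = 0.0255). The exchange factor gene Rasgrp1 links the T cell receptor to Ras. It was at 311.09 and 301.47 TPM in N, 228.74 and 238.37 in ACT, and 206.47 and 223.66 in ACT IL21. Rasgrp1 did not pass against N in ACT (-0.39, adjusted p = 0.156) or in ACT IL21 (-0.51, adjusted p = 0.0765).

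In the p38 and JNK list, Map3k5 passed alone among 17 genes, in both comparisons with N. Map3k5 encodes a stress-activated kinase and was at 14.41 and 16.26 TPM in N, 33.86 and 52.95 in ACT, and 52.39 and 39.42 in ACT IL21. It rose by 1.41 ± 0.28 in ACT (adjusted p = 0.0255) and by 1.51 ± 0.28 in ACT IL21 (adjusted p = 0.021). The list medians were 0.16, 0.21 and -0.07 in the 3 comparisons.

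Among 14 measured upstream brakes, 2 rose and 2 fell in ACT against N, 1 rose in ACT IL21 against N and 1 was higher in ACT IL21 than in ACT, with medians of 0.14, 0.63 and 0.21. Dgka, whose enzyme removes the diacylglycerol that recruits RasGRP1, was at 630.76 and 579.77 TPM in N, 216.50 and 226.51 in ACT, and 418.02 and 477.60 in ACT IL21. Dgka fell in ACT against N (-1.45 ± 0.14, adjusted p = 0.00102) and was higher in ACT IL21 than in ACT (1.01 ± 0.14, adjusted p = 0.0134). The GTPase-activating protein gene Rasa3 also fell in ACT against N (-0.84 ± 0.18, adjusted p = 0.0389). The adaptor gene Dok2 rose there (1.58 ± 0.28, adjusted p = 0.0172). Ptpn22, a phosphatase gene that dampens T cell receptor signalling, rose in ACT (0.73 ± 0.14, adjusted p = 0.0214) and in ACT IL21 (0.90 ± 0.14, adjusted p = 0.00968) against N.

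The transcription factor genes that ERK signalling drives or acts through moved in both directions. Of 23 measured, 2 fell in ACT against N, 2 rose and 1 fell in ACT IL21 against N, and 1 was higher in ACT IL21 than in ACT, with medians of -0.07, 0.23 and 0.29. The AP-1 gene Fos was at 85.83 and 78.21 TPM in N, 50.65 and 46.53 in ACT, and 106.00 and 120.60 in ACT IL21. Fos fell in ACT against N (-0.74 ± 0.17, adjusted p = 0.0426), and its AP-1 partner gene Jun also fell (-1.18 ± 0.19, adjusted p = 0.0121). Fos was higher in ACT IL21 than in ACT (1.20 ± 0.17, adjusted p = 0.0136). Fosb (2.59 ± 0.35, adjusted p = 0.00574) and Egr2 (1.82 ± 0.26, adjusted p = 0.00803) rose in ACT IL21 against N, and Myc fell (-1.41 ± 0.28, adjusted p = 0.0297). Dusp1 and Fos, both classical immediate early genes, passed in opposite directions in ACT against N, at 1.22 and -0.74. The other EGR, AP-1 and IER genes measured went both ways there. Ier3 (2.10), Fosb (0.95), Egr2 (0.82), Ier5 (0.62) and Junb (0.19) had positive values that did not pass. Negative values were those of Jun, which passed, and of Ier2 (-0.61), Egr3 (-0.27), Egr1 (-0.25), Jund (-0.12) and Fosl2 (-0.01), which did not.

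Most of these pathway calls ended under at least 1 alternative. With all 6 libraries kept, 13 of the 16 calls named ended without the intensity trend, 7 without a filter on low values and 4 with the libraries of the compared pools alone. Of the 16, 1, that of Dgka in ACT against N, passed whichever of the 6 libraries was left out. The calls of Fos and Ptpn22 in ACT against N ended without any single library, with adjusted p up to 0.276 and 0.166. The other calls ended for 1 to 5 of the libraries: adjusted p rose up to 0.0763 and 0.176 for Rasgrp2, 0.163 and 0.153 for Map3k5, 0.25 for Rasa3, 0.135 for Dok2, and 0.11 for Ptpn22 in ACT IL21. It rose up to 0.122 for Jun, 0.0627 for Fosb, 0.0848 for Egr2, 0.197 for Myc, and 0.153 for Dgka and 0.136 for Fos in ACT IL21 against ACT. No alternative reversed the direction of any of them.

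**Figure D4:**
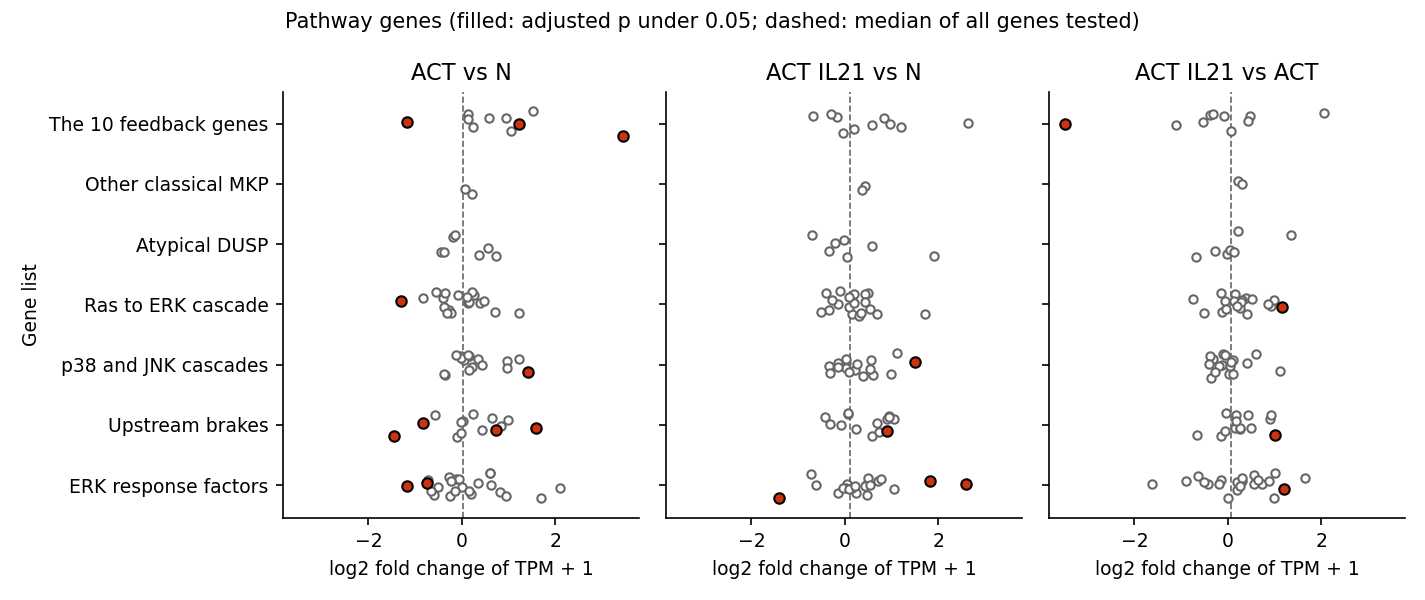
Log2 fold change of TPM + 1 of the genes reported from the 10 feedback genes and the pathway lists, in the 3 comparisons; filled points have an adjusted p under 0.05, the dashed line is the median of all genes, and vertical scatter within a row has no meaning. Filled points lie on both sides of 0 among the upstream brakes in ACT against N, and Spry2 (3.44 and -3.48) lies farthest from 0.

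**Figure D5:**
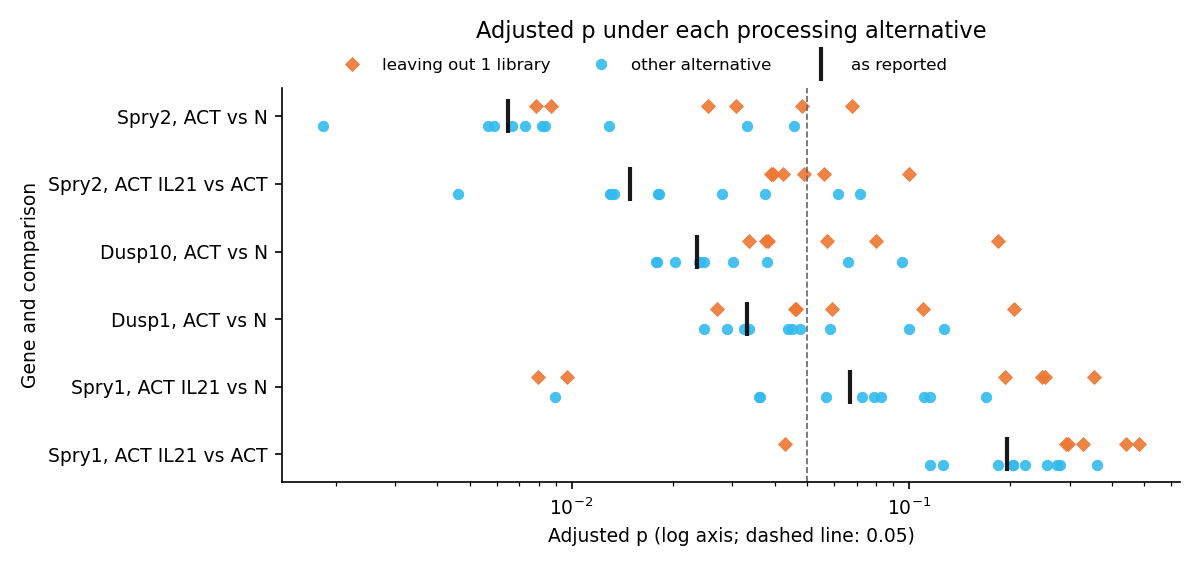
Adjusted p on a log axis for 6 member comparisons as reported, with each library left out and under each other alternative; the dashed line is 0.05. Every comparison has points on both sides of the line, from 0.00183 for Spry2 in ACT against N to 0.482 for Spry1 in ACT IL21 against ACT.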

How the data were processed

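RNA from 6 libraries, 2 for each of 3 sorted pools, was analysed. The deposited values are gene-level TPM per library. Per the submitters' processing notes, the authors used Trimmomatic, Bowtie and RSEM with the build GRCm38, and no version is named. The extraction used a Qiagen RNeasy kit and NuGEN Ovation amplification, per the labels' protocols. In the sources used here, annotation release, read length and strand setting are not given. RSEM shares reads among similar genes by estimation, and a fixed total per library lets abundant genes lower all others. Depth is unknown, so no counting interval is given.

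The table held 38355 entries, and 139 with a repeated symbol were summed. Tests covered the 13311 genes that reached 1 TPM in 2 or more libraries, which kept all 10 members; Spry2 passed through ACT and 1 ACT IL21 library. limma 3.58.1 in R 4.3.3 was fitted to log2(TPM + 1) over all 6 libraries with a term for the pool, an intensity trend and 3 residual degrees of freedom. Tests were two-sided, with Benjamini-Hochberg adjustment over the genes tested and a threshold of 0.05. Fold changes are those of log2(TPM + 1), so they are too small for genes of low TPM. The fit was tested on simulated data. Alternatives changed the pseudocount, filter, scaling (TMM, quantile, or without ribosomal protein and antigen receptor genes), libraries, trend and replicate block.

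The members and lists were chosen with earlier results of these data known. Named were the 10 members, up to 4 genes past the threshold for each pathway list and comparison, and the 3 genes with a mean of at least 5 TPM most like each member past it; genes named outside this rule were chosen after their values were seen. Some genes of the lists are not reported here. Hras was matched through an older symbol. Positions are from GENCODE M21 (GRCm38) and promoters from RefSeq (GRCm38.p6).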

Additional observations from a re-analysis of the deposited data

How the results depend on the processing

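Of 479 member values under an alternative, 444 kept their direction and side of the threshold, 16 lost a call, 6 gained one and 13 changed sign. With 1 library left out the counts of members past the threshold ranged from 0 to 3 in ACT against N, 0 to 1 in ACT IL21 against N and 0 to 1 in ACT IL21 against ACT, where without ACT replicate 1 the gene was Spry1 and not Spry2. The counts over all genes, 743, 677 and 259 as reported, ranged from 260 to 678, 169 to 903 and 32 to 202. Fewer libraries leave fewer residual degrees of freedom, and a pool of 1 library is assumed to vary like the others. Without a filter on low values, which adds genes to the adjustment, 1 member and 469 genes passed in ACT against N, 0 members and 410 genes in ACT IL21 against N, and 0 members and 124 genes in ACT IL21 against ACT. Without the intensity trend 1 member passed in ACT against N. In ACT IL21 against N 1 member, Spry1, passed with a pseudocount of 5, with the replicate block and with the libraries of those pools alone, where Spry2 was below the filter. In ACT IL21 against ACT 0 members passed with a pseudocount of 0.1, and 137 genes passed with those pools alone.

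The sign changes were of values that had not passed. Spred1 in ACT against N was -0.0017 after quantile normalization, Spry2 in ACT IL21 against N 0.0059 with a pseudocount of 5, and Dusp2 in ACT IL21 against ACT -0.0085 after TMM rescaling. With 1 library left out, values in ACT against N ranged from -0.019 to 0.28 for Dusp2 and from -0.45 to 1.62 for Spry1. In ACT IL21 against N they ranged from -0.19 to 0.57 for Dusp2, -0.78 to 0.43 for Dusp5 and -0.56 to 0.48 for Spry2. In ACT IL21 against ACT they ranged from -0.32 to 0.44 for Dusp2, -0.66 to 0.0021 for Dusp4 and -0.26 to 0.093 for Dusp6. Rescaling moved the median of all genes in ACT IL21 against N by -0.10 with TMM and by -0.15 with quantile normalization.

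The libraries share replicate numbers, but nothing says that the numbers mark a shared animal or day. Differences between replicates 1 and 2 correlated across genes by 0.21 between N and ACT, -0.004 between N and ACT IL21 and 0.00078 between ACT and ACT IL21. Since no label gives pairs, the numbers were not taken as such, although the value for N and ACT was not near 0. With the replicate block 784, 732 and 284 genes passed in the 3 comparisons, and Spry1 was the member whose call changed (adjusted p = 0.0362 in ACT IL21 against N).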

Other observations

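Spry1 and Il21, the gene that the reporter follows, lie on the same chromosome, with 407 kb between the end of Il21 and the start of Spry1 (GENCODE M21, GRCm38). The interval was looked at after the values of Spry1 were seen. The TPM of Il21 was 44.48 and 51.87 in the ACT IL21 pool, 0 and 1.26 in ACT, and 0 in each N library. The ACT library with Il21 at 0 was the one with Spry1 at 6.80 TPM, and the one with Il21 at 1.26 TPM had Spry1 at 0.86 TPM. These are single libraries with low values, and a link between the levels of the 2 genes was not tested. Of 10 genes of the table between them, 5 were tested and 0 passed in any comparison by limma, while 1, Fgf2, had an unadjusted p under 0.05. Spata5, an ATPase gene, was at 37.05 and 40.60 TPM in N, 30.19 and 45.82 in ACT, and 21.78 and 31.50 in ACT IL21. Fgf2, a fibroblast growth factor gene, reached 2.04 and 2.03 TPM in ACT IL21 and 1.10 TPM in ACT replicate 1, and the 3 remaining libraries list it at 0.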
